A study of Mus musculus with 6 samples.

Results

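Tumour necrosis factor (Tnf) and the genes around it were followed in cells of bronchoalveolar lavage fluid, which is saline rinsed through the airways and alveoli, in mice. The 10 genes were taken by name from a table of 22800 gene symbols, and all 10 were found in it. They comprise the ligands Tnf, Tnfsf9 and Tnfsf10, the receptors Tnfrsf1a and Tnfrsf1b, the adaptors Traf1, Traf2, Traf3 and Traf6, and Tnfaip2. RNA was sequenced from mice that had an intraperitoneal dose of 20 µg sulfatide (3 libraries, numbered 1, 2 and 3) and from mice treated with vehicle (3 libraries, numbered 2, 3 and 4). Sulfatide is a myelin glycolipid bearing a sulfate group, which type II natural killer T cells recognise on CD1d, and the series title names lung ischemia-reperfusion injury. The labels give no strain, sex, age, time after injection or content of the vehicle, and are silent on whether lungs had been made ischemic. Nor is it stated that each library stands for its own animal, so a p-value here reflects the spread among libraries, part of which may be technical.

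Tnf is made as a membrane protein, is cut free by the protease Adam17 and binds as a trimer to the receptors that Tnfrsf1a and Tnfrsf1b encode. Tnfrsf1a is present on most cells and carries a death domain, whereas Tnfrsf1b is found mainly on immune and endothelial cells, lacks that domain and recruits Traf2 together with Traf1. The Traf proteins pass the signal on to NF-kappaB and to stress kinases, and macrophages are a main source of Tnf in the inflamed lung.

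Levels were measured as FPKM, fragment numbers scaled to transcript length and library total, so that levels can be set side by side between genes. The FPKM total of a library was 1217970 to 1249690 for sulfatide and 1126780 to 1168470 for vehicle, and 10254 to 10350 genes reached 1 FPKM in each library. Relative to vehicle replicate 2, the depth estimated from low values was 1.07, 1.20 and 0.849 in sulfatide replicates 1, 2 and 3, and 1.06 and 1.01 in vehicle replicates 3 and 4. All 7 general macrophage markers reached 1 FPKM, with a summed level of 27052 to 38269 FPKM in sulfatide libraries and 29602 to 34327 FPKM in vehicle libraries. Of 8 markers of resident alveolar macrophages 4 reached 1 FPKM in some library (Pparg, Marco, Chil3 and Ear2), Siglecf and Car4 stayed below it, and Fabp1 and Krt79 were listed at 0 throughout.

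None of the 11 markers of T, natural killer T and natural killer cells reached 1 FPKM in any library. Their summed level was 0.490 to 0.900 FPKM in sulfatide libraries and 0.640 to 1.01 FPKM in vehicle libraries, with Cd3e, Cd3g, Zbtb16, Ncr1, Nkg7 and Il2rb at 0 throughout. The summed level of 8 neutrophil markers was 376 to 513 FPKM in sulfatide libraries and 117 to 155 FPKM in vehicle libraries, so that it moved with the groups. S100a8, which macrophages can also express, made up most of that sum, at 419 ± 55.3 FPKM in sulfatide libraries and 105 ± 11.7 FPKM in vehicle libraries (SD, n = 3 each), and was the only one of the 8 called. The means of S100a9 (21.2 and 21.9 FPKM in sulfatide and vehicle libraries), Camp (3.46 and 5.12 FPKM) and Ngp (1.89 and 2.41 FPKM) were not higher in sulfatide libraries, Ly6g did not exceed 0.18 FPKM and Cxcr2 did not exceed 0.12 FPKM. Of 7 dendritic cell markers, with a summed level of 2.67 to 3.42 FPKM in sulfatide libraries and 2.33 to 2.90 FPKM in vehicle libraries, Xcr1 was at 0 throughout and only Cd209a and Ccr7 reached 1 FPKM. Cd209a was at 2.36, 1.19 and 2.59 FPKM in sulfatide replicates 1, 2 and 3 and was listed at 0 in all 3 vehicle libraries (adjusted p = 0.000685), whereas Ccr7 averaged 0.557 ± 0.220 FPKM in sulfatide libraries and 1.96 ± 0.340 FPKM in vehicle libraries (SD, n = 3 each; adjusted p = 0.00348). Cd209a passed the filter for testing through the sulfatide libraries alone, and Ccr7 through the vehicle libraries alone. The part of the neutrophil and dendritic cell markers in the results was not tested. In these bulk libraries fewer cells of a type and less RNA per cell cannot be told apart.

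Tnf, Tnfsf10, Tnfrsf1b, Traf1, Traf2 and Tnfaip2 were lower in sulfatide libraries than in vehicle libraries, while Tnfsf9, Tnfrsf1a, Traf3 and Traf6 did not pass the test and none of the 10 genes was called higher. Calls required an adjusted p under 0.05 (limma on log2(FPKM + 1), Benjamini-Hochberg adjustment over 10405 genes). Of all genes tested 18.7% were called, 8.31% higher and 10.4% lower, against 6 of the 10 genes here. The share of calls that were higher was 44.5%, and 23.6% after rescaling each library to the same total (TPM), under which 7 of the 10 genes were lower and none higher. The median log2 fold change was -0.73 over the 10 genes and 0.04 over all genes tested. Sulfatide and vehicle libraries did not overlap in 7 of the 10 genes, Traf6 being the seventh, and in 37.0% of all genes tested. The 10 genes and the further lists below were chosen with earlier results of these data known. Setting their counts and medians beside those of all genes is therefore descriptive and no independent test. All 10 genes passed the filter of at least 1 FPKM in at least 3 libraries, Tnfsf10 through the vehicle libraries alone.

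**Figure D1:**
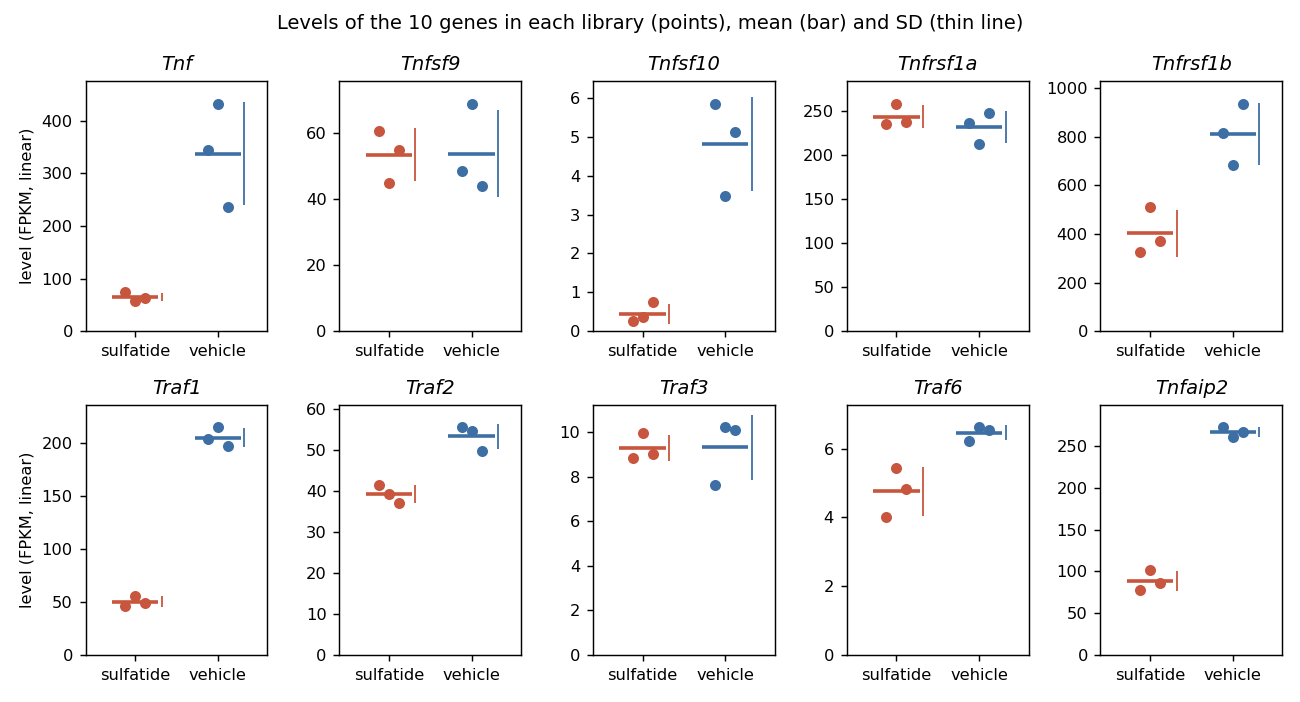
Levels of the 10 genes in FPKM on linear axes that start at 0, with a point for each library, a bar for the mean and a thin line for the SD (n = 3 in each group). Tnf, Tnfsf10, Tnfrsf1b, Traf1, Traf2, Traf6 and Tnfaip2 have every sulfatide point below every vehicle point, and the points of Tnfsf9, Tnfrsf1a and Traf3 overlap.

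Tnf, the ligand that gives the family its name, was lower in every sulfatide library. It was at 73.8, 57.9 and 62.6 FPKM in sulfatide replicates 1, 2 and 3, against 343, 432 and 237 FPKM in vehicle replicates 2, 3 and 4. The lowest vehicle library lay well above the highest sulfatide library, and the spread was wider in vehicle (SD 97.9 FPKM) than in sulfatide (SD 8.16 FPKM). The log2 fold change was -2.33 ± 0.19 (SE, adjusted p = 0.000111), and Tnf ranked 38th among 10405 genes by the size of the fall. Leaving out each library in turn gave -2.56 to -2.13, with adjusted p of 0.00127 or lower. The gene lies on the minus strand of chromosome 17 at 35199381 to 35202007 (mm10), between the related genes Ltb (35194439 to 35196320) and Lta (35203165 to 35205351).

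The neighbours of Tnf were scarce. Lta, which encodes lymphotoxin alpha, was at 0, 0.32 and 0 FPKM in sulfatide replicates 1, 2 and 3, against 0.52, 0.37 and 0.64 FPKM in vehicle replicates 2, 3 and 4, below the level required for testing. Ltb, its membrane partner, averaged 1.07 ± 0.336 FPKM in sulfatide libraries and 1.20 ± 0.350 FPKM in vehicle libraries (SD, n = 3 each; log2 fold change -0.09, 95% interval -0.48 to 0.31).

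Tnf RNA is short-lived, and AU-rich repeats in its 3' untranslated region bind the decay factor Zfp36. The letters TTATTTATT, searched on the transcript strand, occurred 5 times with overlaps in the 764 bases of the Tnf 3' untranslated region (GENCODE M21) and not in that of the other 9 genes, whose regions were 253 to 5088 bases long. Over 20981 genes with such a region, of all lengths, 7.19% held it. The shorter letters ATTTA were not particular to Tnf. They occurred 8 times in Tnf, 8 times in Tnfsf10 (3998 bases) and 11 times in Traf6 (4170 bases). The other genes held them 1 to 3 times, save Tnfrsf1a with 0. The stretch is shown because none of the other 9 genes holds TTATTTATT there. It covers bases 436 to 465 of the Tnf region, which hold 4 of the 5 occurrences of TTATTTATT, in capitals.
Tnf repeat: taTTATTTATTATTTATTTATTATTTATTt
Zfp36 itself was lower, at 134 ± 1.72 FPKM in sulfatide libraries and 191 ± 21.1 FPKM in vehicle libraries (SD, n = 3 each; log2 fold change -0.50 ± 0.09, adjusted p = 0.00646).

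Tnfsf10 encodes TRAIL, a ligand of death receptors that interferons induce. It was at 0.25, 0.37 and 0.74 FPKM in sulfatide replicates 1, 2 and 3, against 5.85, 3.48 and 5.12 FPKM in vehicle replicates 2, 3 and 4. No sulfatide library reached 1 FPKM and no vehicle library fell below 3 FPKM, a 10.6-fold difference of the means. The log2 fold change was -1.99 ± 0.19 (SE, adjusted p = 0.000204) and, because the added 1 FPKM understates the change of so low a gene, -3.22 with a pseudocount of 0.1. Tnfrsf10b, a death receptor for TRAIL in the mouse, averaged 1.92 FPKM in sulfatide libraries and 2.06 FPKM in vehicle libraries (log2 fold change -0.04, 95% interval -0.46 to 0.38).

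Tnfsf9, the ligand of the costimulatory receptor Tnfrsf9, did not pass the test. It was at 60.7, 44.9 and 55.0 FPKM in sulfatide replicates 1, 2 and 3, against 48.4, 68.9 and 44.1 FPKM in vehicle replicates 2, 3 and 4. The groups overlapped, and the log2 fold change was 0.01 (95% interval -0.38 to 0.40, adjusted p = 0.980). Tnfrsf9 was at 11.3 and 8.49 FPKM on average in sulfatide and vehicle libraries (log2 fold change 0.38, 95% interval -0.16 to 0.92).

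Of the receptors of Tnf, Tnfrsf1b fell and Tnfrsf1a did not pass the test. Tnfrsf1b was at 324, 512 and 369.96 FPKM in sulfatide replicates 1, 2 and 3, against 817, 682 and 936 FPKM in vehicle replicates 2, 3 and 4. Its groups did not overlap, the means differed 2.02-fold, and the log2 fold change was -1.03 ± 0.17 (SE, adjusted p = 0.00371). Tnfrsf1a was at 235, 258 and 237 FPKM in sulfatide replicates 1, 2 and 3, against 236, 212 and 247 FPKM in vehicle replicates 2, 3 and 4. The groups of Tnfrsf1a overlapped (log2 fold change 0.07, 95% interval -0.13 to 0.27, adjusted p = 0.594).

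Within each library Tnfrsf1b exceeded Tnfrsf1a, with a ratio of FPKM of 1.38, 1.98 and 1.56 in sulfatide replicates 1, 2 and 3, against 3.47, 3.22 and 3.79 in vehicle replicates 2, 3 and 4. On the log2 scale this ratio was 0.70 ± 0.265 in sulfatide libraries and 1.80 ± 0.118 in vehicle libraries (SD, n = 3 each). The difference was -1.10, with p = 0.1 in an exact 2-sided permutation test, the smallest that 3 against 3 libraries can give.

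**Figure D2:**
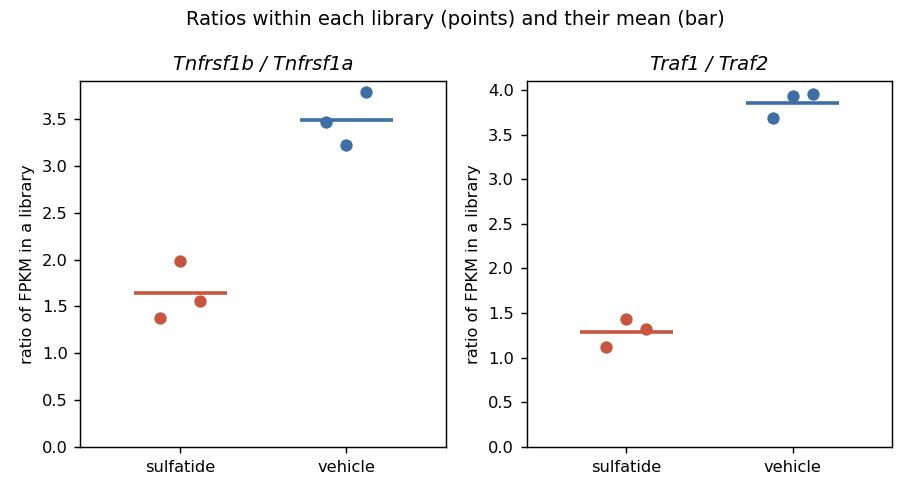
Ratio of FPKM within each library (points) and its mean (bars) for Tnfrsf1b over Tnfrsf1a (left) and Traf1 over Traf2 (right), on linear axes that start at 0. Sulfatide libraries lie between 1.38 and 1.98 on the left and between 1.12 and 1.43 on the right, below every vehicle library in both panels.

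The 300 bases around the start of the Tnf, Tnfrsf1b and Traf3 genes are shown. Tnf and Tnfrsf1b, a ligand and a receptor, fell, and the adaptor Traf3 did not pass the test. Tnfrsf1b and Traf3 were also the only genes searched that held a match to a motif below. A link between motif and fall was not tested. The promoters of 9 of the 10 genes were in RefSeq's table (GRCm38.p6, 250 bases before to 50 bases after the start) and were searched on both strands for the kappaB consensus of NF-kappaB and for the core of interferon response elements, which is GAAA, any 2 bases and GAAA again. The kappaB consensus was found in 1 of the 9, that of Traf3, starting 10 bases before the gene, and in 4.35% of 27025 promoters of that length. The interferon response core was found in 1 of the 9, that of Tnfrsf1b, on the opposite strand and again starting 10 bases before the gene, and in 3.49% of promoters. Neither match overlapped the other motif, and neither motif occurred in this window of Tnf. Bases outside the window were not searched, nor were variants of either motif inside it. The lack of a match therefore says nothing about sites elsewhere or about variant sites within the window. Matches are in capitals, and each sequence runs along the strand of its gene.
Tnf, chr17:35201958-35202257, minus strand: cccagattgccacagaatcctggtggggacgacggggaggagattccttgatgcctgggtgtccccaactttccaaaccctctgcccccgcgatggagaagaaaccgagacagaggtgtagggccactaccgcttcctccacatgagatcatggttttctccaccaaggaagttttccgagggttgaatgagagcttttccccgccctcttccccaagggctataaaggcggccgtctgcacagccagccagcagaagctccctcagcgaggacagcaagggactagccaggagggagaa
Tnfrsf1b, chr4:145246821-145247120, minus strand: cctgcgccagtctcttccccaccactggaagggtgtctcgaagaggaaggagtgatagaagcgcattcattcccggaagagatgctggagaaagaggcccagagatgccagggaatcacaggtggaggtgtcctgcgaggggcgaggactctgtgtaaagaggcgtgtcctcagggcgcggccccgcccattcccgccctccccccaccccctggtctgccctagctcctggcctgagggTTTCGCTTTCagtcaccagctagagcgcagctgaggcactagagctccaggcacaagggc
Traf3, chr12:111166120-111166419, plus strand: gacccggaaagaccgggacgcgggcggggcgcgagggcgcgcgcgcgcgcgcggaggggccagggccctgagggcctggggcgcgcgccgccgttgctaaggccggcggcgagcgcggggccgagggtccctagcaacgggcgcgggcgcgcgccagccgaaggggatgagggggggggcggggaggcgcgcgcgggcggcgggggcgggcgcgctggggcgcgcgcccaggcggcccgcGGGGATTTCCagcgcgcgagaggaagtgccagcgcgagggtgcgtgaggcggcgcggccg

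Among the adaptors, Traf1 was lower with little spread. Traf1 lacks the RING domain that most Traf proteins have, and it binds the Tnfrsf1b complex together with Traf2. It was at 46.5, 56.1 and 48.7 FPKM in sulfatide replicates 1, 2 and 3, against 204, 215 and 197 FPKM in vehicle replicates 2, 3 and 4. The groups were far apart, with a 4.07-fold difference of the means and a log2 fold change of -2.01 ± 0.09 (SE, adjusted p = 1.08e-05). By p Traf1 ranked 4th of the 10405 genes.

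Traf2, the adaptor that both Tnf receptor complexes use, was lower by a smaller amount. It was at 41.5, 39.2 and 37.0 FPKM in sulfatide replicates 1, 2 and 3, against 55.5, 54.6 and 49.8 FPKM in vehicle replicates 2, 3 and 4. The groups did not overlap (log2 fold change -0.43 ± 0.09, adjusted p = 0.0112), but the call was lost when sulfatide replicate 3 (adjusted p = 0.0570) or vehicle replicate 2 (adjusted p = 0.0606) was left out. The ratio of Traf1 to Traf2 in FPKM was 1.12, 1.43 and 1.32 in sulfatide replicates 1, 2 and 3, against 3.68, 3.93 and 3.96 in vehicle replicates 2, 3 and 4. Its log2 value was 0.35 ± 0.176 in sulfatide libraries and 1.93 ± 0.0570 in vehicle libraries (SD, n = 3 each), a difference of -1.58 (exact 2-sided permutation test, p = 0.1, the smallest possible).

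Traf3, which restrains the non-canonical NF-kappaB pathway, was at 8.85, 9.95 and 9.03 FPKM in sulfatide replicates 1, 2 and 3, against 7.64, 10.2 and 10.1 FPKM in vehicle replicates 2, 3 and 4. The groups overlapped (log2 fold change 0.00, 95% interval -0.29 to 0.30, adjusted p = 0.987). Traf6, which carries signals from Toll-like and interleukin-1 receptors and from Cd40, was at 4.02, 5.43 and 4.83 FPKM in sulfatide replicates 1, 2 and 3, against 6.24, 6.62 and 6.56 FPKM in vehicle replicates 2, 3 and 4. Its groups did not overlap, yet it did not pass the test (log2 fold change -0.38 ± 0.12, 95% interval -0.66 to -0.10, adjusted p = 0.0605). It passed after rescaling to TPM (adjusted p = 0.0293) and without sulfatide replicate 2 (adjusted p = 0.0394).

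The rest of the Traf family, named as a family after its values were seen, was uneven. Traf5, a relative of Traf2, averaged 12.0 FPKM in sulfatide libraries and 20.0 FPKM in vehicle libraries (log2 fold change -0.70 ± 0.12, adjusted p = 0.00386). Traf7 averaged 45.3 and 39.1 FPKM in sulfatide and vehicle libraries (log2 fold change 0.20, adjusted p = 0.156), and Traf4 stayed below 1 FPKM.

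Tnfaip2, named for its induction by Tnf and known for the formation of membrane nanotubes, was lower too. It was at 77.8, 102 and 85.8 FPKM in sulfatide replicates 1, 2 and 3, against 272, 261 and 267 FPKM in vehicle replicates 2, 3 and 4. The means differed 3.01-fold without overlap (log2 fold change -1.59 ± 0.10, adjusted p = 4.24e-05).

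**Figure D3:**
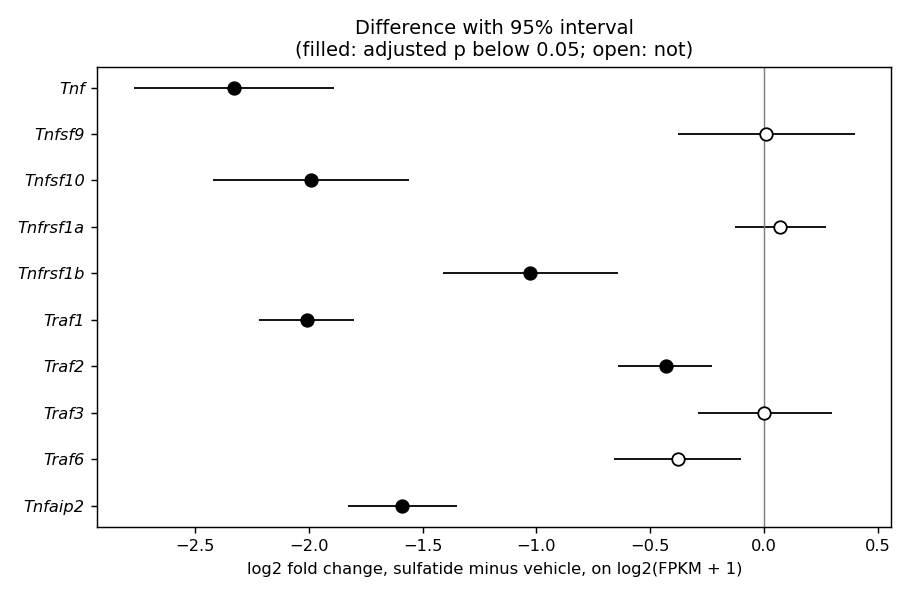
Log2 fold change of each gene, sulfatide minus vehicle in log2(FPKM + 1), with its 95% interval (horizontal line), filled where the adjusted p was below 0.05. The filled points run from -2.33 (Tnf) to -0.43 (Traf2), and the intervals of Tnfsf9, Tnfrsf1a and Traf3 hold 0.

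The order of mean levels differed between groups at the upper end and was the same at the lower end. In sulfatide libraries the order of mean FPKM was Tnfrsf1b, Tnfrsf1a, Tnfaip2, Tnf, Tnfsf9, Traf1, Traf2, Traf3, Traf6 and Tnfsf10, and the ranges of Tnf and Tnfsf9 and of Tnfsf9 and Traf1 overlapped. In vehicle libraries it was Tnfrsf1b, Tnf, Tnfaip2, Tnfrsf1a, Traf1, Tnfsf9, Traf2, Traf3, Traf6 and Tnfsf10. There the ranges of Tnf and Tnfaip2, of Tnf and Tnfrsf1a, of Tnfrsf1a and Traf1, and of Tnfsf9 and Traf2 overlapped. In vehicle replicate 4 Tnf (237 FPKM) lay below both Tnfrsf1a (247 FPKM) and Tnfaip2 (267 FPKM). By its mean Tnf lay among the most abundant of these transcripts in vehicle libraries (337 ± 97.9 FPKM) and near Tnfsf9 in sulfatide libraries (64.8 ± 8.16 FPKM).

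Genes whose log2 values, taken relative to the vehicle mean, lay closest to those of Tnf over the 6 libraries were Bcl2a1a, Bcl2a1d, Ccrl2, Cd69 and Icosl (Euclidean distances 0.409 to 0.646). Bcl2a1a and Bcl2a1d are near-identical survival genes between which the split of fragments is uncertain. Rasgef1b, Shisa3 and Adora2a lay closest to Traf1 (distances 0.305 to 0.442). Closest to Tnfsf10 were the interferon-induced genes Irf7, Gm12250 and Ifi47 (distances 0.255 to 0.298). Irf7 averaged 116 FPKM in sulfatide libraries and 482 FPKM in vehicle libraries. By this measure genes with a like group difference lie close, so closeness is no separate evidence of a link. Tnfsf10 was at -1.99 on this scale and at -3.22 with a pseudocount of 0.1, with which its closest genes were not searched. A link to interferon was not tested.

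Of the other 15 ligands of the superfamily 6 were tested, 1 rose, 1 fell and 4 did not pass, with a median log2 fold change of 0.05. Over all genes tested 8.31% rose and 10.4% fell. Tnfsf14, the ligand LIGHT of Ltbr and Tnfrsf14, was at 4.80, 5.64 and 3.99 FPKM in sulfatide replicates 1, 2 and 3, against 0.11, 0.31 and 0.32 FPKM in vehicle replicates 2, 3 and 4. It rose (log2 fold change 2.22 ± 0.15, adjusted p = 4.62e-05, and 3.88 with a pseudocount of 0.1) opposite in direction to Tnf, and it was tested through the sulfatide libraries alone. Tnfsf4, the ligand of the costimulatory receptor Tnfrsf4, was lower, at 7.03 ± 1.36 FPKM in sulfatide libraries and 12.9 ± 2.37 FPKM in vehicle libraries (SD, n = 3 each; adjusted p = 0.0111, and 0.0507 without vehicle replicate 2).

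Of the other 26 receptors 15 were tested, 2 rose, 4 fell and 9 did not pass (median log2 fold change 0.02). The shares over all genes tested were 8.31% higher and 10.4% lower. Cd40, a costimulatory receptor that signals through Traf proteins, was at 239, 146 and 148 FPKM in sulfatide replicates 1, 2 and 3, against 595, 669.5 and 479.83 FPKM in vehicle replicates 2, 3 and 4 (log2 fold change -1.73 ± 0.19, adjusted p = 0.000444). The death receptor Fas averaged 87.8 ± 6.18 FPKM in sulfatide libraries and 131 ± 9.77 FPKM in vehicle libraries (SD, n = 3 each; adjusted p = 0.00305). Tnfrsf14 (log2 fold change -0.80) and Tnfrsf11a, the receptor RANK (-0.63), fell as well (adjusted p = 0.00789 and 0.00851).

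The receptors that rose were Relt and Tnfrsf21, a death domain receptor. Relt was at 6.42 ± 0.797 FPKM in sulfatide libraries and 3.20 ± 0.0529 FPKM in vehicle libraries (SD, n = 3 each; adjusted p = 0.00185). Tnfrsf21 was at 12.4 ± 2.30 FPKM in sulfatide libraries and 6.95 ± 0.927 FPKM in vehicle libraries (SD, n = 3 each; adjusted p = 0.00839). Ltbr, the lymphotoxin beta receptor, averaged 91.2 FPKM in sulfatide libraries and 90.2 FPKM in vehicle libraries (log2 fold change 0.02, 95% interval -0.19 to 0.23).

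**Figure D4:**
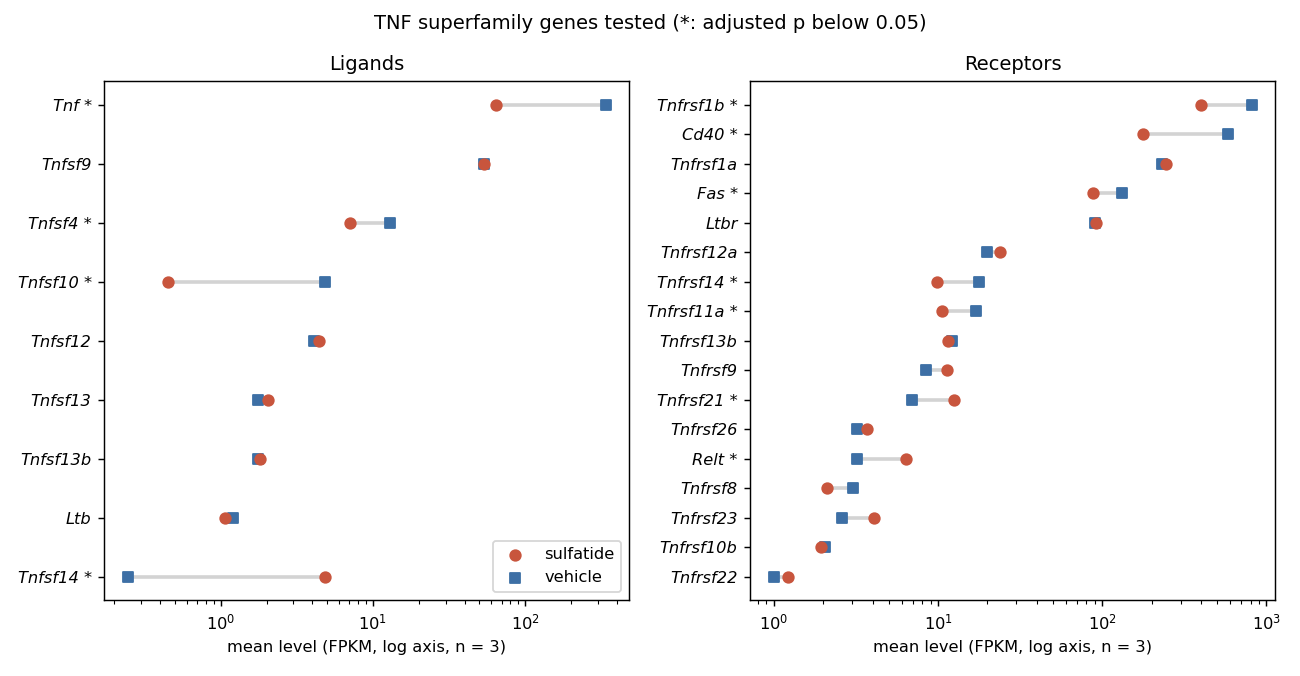
Mean FPKM (log axis, n = 3 in each group) of the ligands (left) and receptors (right) of the superfamily that were tested, with sulfatide as circles, vehicle as squares and an asterisk where the adjusted p was below 0.05. The largest gaps among the ligands are those of Tnf and Tnfsf10, lower in sulfatide, and of Tnfsf14, higher in sulfatide, and Tnfrsf1b is the most abundant receptor in both groups.

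A list of 61 genes covered Tnf receptor signalling and the control of Tnf. It also held genes that share a Traf or Tnfaip name, such as Traf3ip1, Trafd1 and Tnfaip8l1, whose part in either was not examined. Of the 61 genes 57 were tested, 20 fell, 5 rose and 32 did not pass, with a median log2 fold change of -0.15. Over all genes tested 10.4% fell and 8.31% rose. Tnfaip3, which encodes the NF-kappaB inhibitor A20, was at 24.3, 28.1 and 23.7 FPKM in sulfatide replicates 1, 2 and 3, against 71.4, 69.2 and 61.8 FPKM in vehicle replicates 2, 3 and 4 (log2 fold change -1.38 ± 0.10, adjusted p = 7.16e-05). Cflar, an inhibitor of caspase activation at death receptors, averaged 27.8 ± 2.57 FPKM in sulfatide libraries and 56.6 ± 2.08 FPKM in vehicle libraries (SD, n = 3 each; adjusted p = 0.000201). The ubiquitin ligase Birc3, which binds Traf2, averaged 94.8 ± 3.24 FPKM in sulfatide libraries and 118 ± 3.18 FPKM in vehicle libraries (adjusted p = 0.0240), but did not pass in 3 of the fits that left out a library, with adjusted p up to 0.0977.

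Mlkl and Ripk3, which act in necroptosis, a form of lytic cell death, moved in opposite directions. Mlkl, the protein that breaks the membrane, was at 31.4, 33.7 and 37.1 FPKM in sulfatide replicates 1, 2 and 3, against 125, 89.2 and 111 FPKM in vehicle replicates 2, 3 and 4 (log2 fold change -1.63 ± 0.13, adjusted p = 8.73e-05). Ripk3, the kinase that activates it, was at 55.0, 45.5 and 52.4 FPKM in sulfatide replicates 1, 2 and 3, against 23.8, 27.2 and 27.1 FPKM in vehicle replicates 2, 3 and 4 (log2 fold change 0.94 ± 0.10, adjusted p = 0.000428). Ripk1 averaged 30.04 FPKM in sulfatide libraries and 28.8 FPKM in vehicle libraries (log2 fold change 0.05, 95% interval -0.18 to 0.29).

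Adam17 and Rhbdf2, which act in the release of Tnf from the membrane, were lower. The protease Adam17 was at 106, 134 and 113 FPKM in sulfatide replicates 1, 2 and 3, against 177, 172 and 181 FPKM in vehicle replicates 2, 3 and 4 (log2 fold change -0.59 ± 0.10, adjusted p = 0.00393). Rhbdf2, encoding the iRhom protein that carries Adam17 to the surface, averaged 55.7 ± 2.57 FPKM in sulfatide libraries and 89.1 ± 5.02 FPKM in vehicle libraries (SD, n = 3 each; adjusted p = 0.000827). Rhbdf1 and Frmd8, of the same list, did not pass the test (log2 fold change -0.27 and -0.15, adjusted p = 0.142 and 0.284). The genes of this list that rose, named after their values were seen, were Ripk3, Traf3ip3, Tnfaip8l1, Tnfaip8l2 and Tax1bp1. Their number was 2 after rescaling to TPM, 3 with no filter on low values, and 2, 3, 1 and 3 without sulfatide replicate 1, sulfatide replicate 3, vehicle replicate 2 and vehicle replicate 4 in turn.

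**Figure D5:**
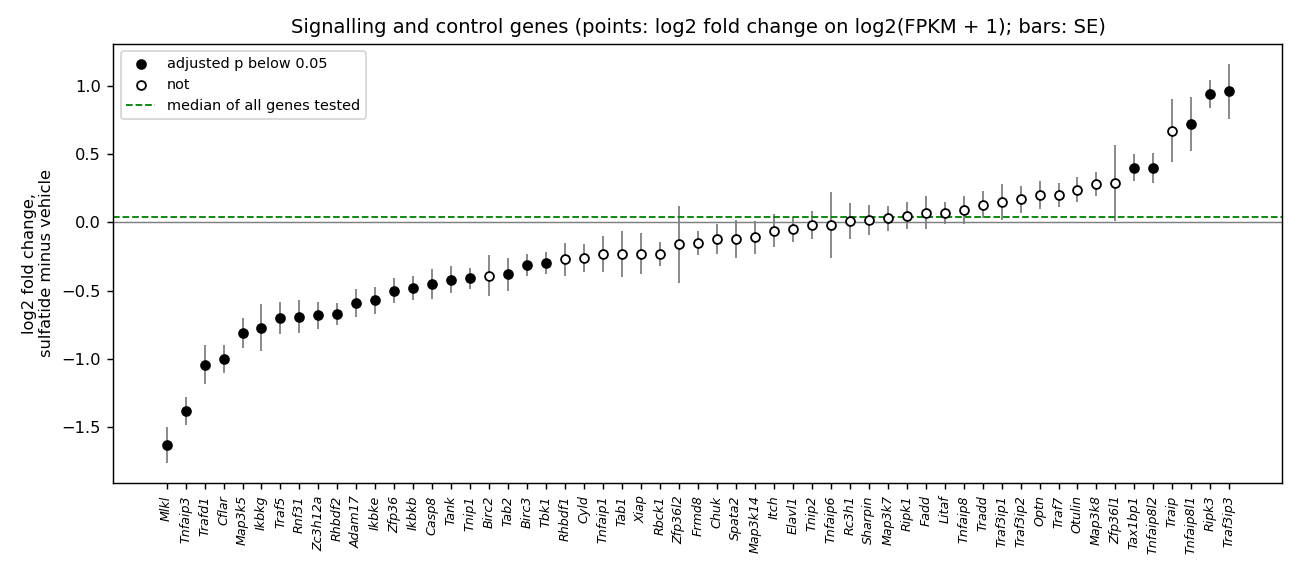
Log2 fold change (points, sulfatide minus vehicle in log2(FPKM + 1)) with its SE (bars) for the 57 tested genes of the signalling and control list. Points are filled where the adjusted p was below 0.05. The dashed line is the median of all genes tested (0.04), Mlkl (-1.63) is at the left end, and Ripk3 (0.94) is near the right end.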

How the data were processed

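The members and gene lists were chosen with earlier results of these data known. Per the labels' protocols, poly(A)-selected, strand-specific libraries were sequenced as paired-end reads. Per the submitters' processing notes, reads were placed on mm10. How they were aligned and counted, with which annotation and whether by strand, is not given in the sources used here. The authors deposited FPKM values rounded to 2 decimals. A further 3 columns of values fitted no sample's title and stayed unused. Absolute depth is unknown, and relative depth is the commonest ratio between libraries among values of 0.1 to 1.5 FPKM, and is approximate.

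Groups and replicate numbers came from the sample titles. Values were analysed as log2(FPKM + 1) with limma 3.58.1 in R 4.3.3 (lmFit, eBayes with trend, 2-sided) over 10405 genes (1 FPKM or more in 3 or more libraries). Fold changes are sulfatide minus vehicle on that scale, which understates the change of low genes. A run of the procedure on simulated data with independent normal noise checked the code only, and does not vouch for the calls here. Ratios within libraries were compared by exact permutation. Alternatives were other pseudocounts (0.1 and 0.5), omitting the filter or raising it to 5 FPKM, TPM, quantile normalization, a block for replicate number, and omission of each library.

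Named genes were all 10 members, up to 5 called members without overlap and with the smallest p per further list, and Lta, Ltb, Adam17, Tnfaip3, Birc3 and Zfp36. Tnfrsf9, Tnfrsf10b, Tnfrsf11a, Ltbr, Ripk1, Rhbdf1, Frmd8 and the other Traf genes were added after their values were seen, as was the search of the 3' untranslated regions. In each gene the GENCODE M21 transcript with the best APPRIS rank, then the longest such region, was used. Gene coordinates are those of GENCODE M21, and promoter sequences are RefSeq's.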

Additional observations from a re-analysis of the deposited data

How the results depend on the processing

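Tnf, Tnfsf10, Tnfrsf1b, Traf1 and Tnfaip2 were called lower under every one of the 13 alternatives that tested them (the filter at 5 FPKM removed Tnfsf10), and no called gene changed direction under these alternatives. Tnf ranged from -2.66 to -2.13 and Traf1 from -2.11 to -1.95 on the log2 scale. The signs of Tnfsf9, Tnfrsf1a and Traf3, none of which was called, varied. Of the 10 genes 5 to 7 were lower and none higher when a library was left out, and 6 were lower with a replicate block. The numbers 2 and 3 occur in both groups, and same-numbered libraries deviated from their group means with correlations of 0.156 and -0.303, so that with only 2 such pairs a pairing was not established.

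Without the filter 522 of all genes were higher, after rescaling to TPM 468, and with the replicate block 297, where 635 were lower. The signalling and control list had 3 higher genes without the filter, 2 after rescaling to TPM and 2 with the block, and the ligands and receptors had 3 lower genes with the block, where Tnfrsf14 and Tnfrsf11a were lost (adjusted p = 0.0627 and 0.0710). The cause was not tested. Leaving out each library gave 268 to 1421 higher and 642 to 1135 lower genes over all genes tested, 1 to 6 higher and 14 to 20 lower genes of signalling and control, and 4 to 5 lower and 3 higher ligands and receptors. The log2 ratio difference was -1.24 to -0.98 for Tnfrsf1b over Tnfrsf1a and -1.65 to -1.48 for Traf1 over Traf2 under the 9 alternatives run for ratios (pseudocounts, TPM and omission of each library). Of the 33 called genes outside the 10, 18 kept their call under every alternative that tested them, among them Tnfsf14, Cd40, Tnfaip3, Mlkl, Ripk3 and Adam17. With 3 libraries a group and no counts, genes below 1 FPKM such as Lta could not be resolved.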
